A study of Mus musculus with 10 samples.

Results

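The genes described here code for the nuclear-encoded subunits of the mitochondrial respiratory chain and of ATP synthase. They were taken from the deposited expression tables by symbol: names starting with Nduf and a subunit letter, Sdh, Uqcr, Cox followed by 4 to 8, or Atp5, listed in both tables. Each table lists 23235 symbols. A total of 84 matched, and the 79 with a mean control level of at least 1 FPKM in both tables are described. FPKM are fragments per kilobase of transcript, scaled to the mapped fragments of a library, so levels can be set side by side between genes. Sorted by symbol alone, 36 of the 79 were counted under complex I, 4 under complex II, 8 under complex III, 13 under complex IV and 15 under complex V. A symbol need not name the complex in which a protein sits, and the 13 include the related protein Cox7a2l. The other 3, Cox4nb, Atp5s and Atp5sl, match by name but are not subunits of a complex. All 79 also passed the filter used for testing, a mean of 1 FPKM over the libraries of a table.

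RNA was sequenced from sorted GFP-positive cells of embryonic mouse cortex. Plasmids with GFP and either a control shRNA or an shRNA against the chromatin remodeler Chd8 were electroporated in utero at embryonic day 13, and cells were sorted at embryonic day 15. Each library is a pool of 3 to 5 embryos. A new set holds 3 control libraries and 3 Chd8 knockdown libraries, with replicate numbers 10, 11 and 12 in both groups. A first set holds 2 control and 2 knockdown libraries, numbered 1 and 2. Separate tables hold the sets, named for shRNA1 (new set) and shRNA2 (first set), so shRNA, batch and table cannot be told apart. The sources used here give neither the strain nor the promoter that drives the shRNA.

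The respiratory chain sits in the inner mitochondrial membrane. Complex I (NADH dehydrogenase) and complex II (succinate dehydrogenase, also an enzyme of the citric acid cycle) pass electrons to ubiquinone. Complex III (cytochrome bc1) passes them to cytochrome c, and complex IV (cytochrome c oxidase) to oxygen. Complexes I, III and IV pump protons, and complex V (ATP synthase) uses the gradient to make ATP. All but complex II also contain subunits coded by mitochondrial DNA, which are not analysed here. During cortical development, radial glia are known to rely more on glycolysis and neurons more on oxidative phosphorylation.

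Chd8 itself had a mean of 3.64 ± 0.366 FPKM among control libraries of the new set (SD, n = 3) and of 1.95 ± 0.124 FPKM with knockdown (n = 3). Its first-set means were 13.1 ± 1.02 and 8.89 ± 0.479 FPKM (n = 2 and 2). The fall was called in the new set (log2 fold change −0.65, limma adjusted p = 0.0213) and with the sets joined (−0.58, adjusted p = 0.00285), and was not called in the first set alone (−0.51, adjusted p = 0.152). The new-set call was lost without any 1 library other than control replicate 11, with limma adjusted p-values up to 0.0829. The first-set fold change was −0.27 after rescaling each library by the median of ratios and −0.25 after a correction for transcript length (limma adjusted p = 0.433 and 0.463). Absolute depth is unknown. Relative depth was estimated from the most common ratio of very low FPKM values between libraries, taking each as a single fragment. That assumption was not tested. Relative to control replicate 10, the new-set libraries had an estimated 0.959 to 1.39 times its depth. Both first-set knockdown libraries stood apart: their estimated depth was 0.527 and 0.528 times that of control replicate 1, against 1.22 times for control replicate 2. They listed 80.9% and 78.9% of all genes above 0.1 FPKM, against 58.8% to 61.6% in the other 8 libraries. Of 1118 olfactory receptor genes, which serve the nose, 55.1% and 49.0% were above 0.01 FPKM there, and at most 6.17% in any other library. The part of these differences in the first-set results was not tested. Subtracting the mean olfactory receptor level from each library, an alternative chosen after seeing the data, also gave 7 calls among members in the first set, where 25.1% of all genes were called. It turned the calls over all genes there from 13.2% higher and 10.7% lower to 7.67% higher and 17.4% lower, and gave 15 joined calls among members in place of 12.

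Promoter sequences show a feature of the family that the choice by name did not use. In RefSeq windows from 250 bases before to 50 bases after the transcription start (build GRCm38.p6), 67 of the 79 members had 73 windows. The NRF1 motif (GCGCA, any base, GCGC), a site of the transcription factor NRF1, was searched on both strands and occurs in 18 of these windows (24.7%), against 4.6% of all 32851 windows. The letters CCGGAAG, an ETS-family core also read by GABP (NRF2), occur in 16 (21.9%) against 8.86% of all windows. TATAAA occurs in 8.22% against 13.6%, and CCAAT in 42.5% against 37.4%. The GC content had a median of 57.7% over the windows of members and 52.7% over all windows. All windows were counted whether or not their gene was expressed here. A match is a description of letters and not evidence of binding. Shown are 4 windows picked by hand among members called with the sets joined, all on the minus strand. They are printed 5′ to 3′, with matches to these NRF1 and ETS letters (or their reverse complement) in capitals. They are Cox6a1 (chr5:115348909-115349208), Cox8a (chr19:7217567-7217866), Sdha (chr13:74350191-74350490) and Sdhd (chr9:50603800-50604099).
Cox6a1: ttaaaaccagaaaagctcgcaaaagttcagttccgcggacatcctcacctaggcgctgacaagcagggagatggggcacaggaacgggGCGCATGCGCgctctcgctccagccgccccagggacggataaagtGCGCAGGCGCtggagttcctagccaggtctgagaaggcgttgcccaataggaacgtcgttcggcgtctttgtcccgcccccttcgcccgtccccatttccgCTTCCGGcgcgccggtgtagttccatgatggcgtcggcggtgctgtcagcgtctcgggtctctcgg
Cox8a: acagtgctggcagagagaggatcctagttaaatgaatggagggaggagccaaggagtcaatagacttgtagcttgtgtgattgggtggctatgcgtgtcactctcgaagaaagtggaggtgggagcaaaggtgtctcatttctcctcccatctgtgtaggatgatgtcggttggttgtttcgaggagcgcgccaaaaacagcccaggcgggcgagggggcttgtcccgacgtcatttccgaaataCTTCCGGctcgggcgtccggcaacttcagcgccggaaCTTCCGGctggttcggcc
Sdha: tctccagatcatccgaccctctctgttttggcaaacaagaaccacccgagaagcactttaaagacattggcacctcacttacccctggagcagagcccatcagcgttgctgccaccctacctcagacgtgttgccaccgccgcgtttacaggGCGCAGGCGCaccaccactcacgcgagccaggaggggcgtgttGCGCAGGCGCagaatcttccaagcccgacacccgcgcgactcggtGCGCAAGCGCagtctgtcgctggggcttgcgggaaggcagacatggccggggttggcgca
Sdhd: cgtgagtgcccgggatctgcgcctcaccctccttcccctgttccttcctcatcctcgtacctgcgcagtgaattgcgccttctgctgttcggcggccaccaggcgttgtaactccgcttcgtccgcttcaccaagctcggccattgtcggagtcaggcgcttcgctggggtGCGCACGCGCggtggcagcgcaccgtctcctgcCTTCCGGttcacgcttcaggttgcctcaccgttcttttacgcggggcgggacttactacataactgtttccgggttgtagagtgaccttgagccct
Cox6a1 has 2 NRF1 matches and 1 ETS match, and Cox8a has 0 and 2. Sdha has 3 NRF1 matches and 0 ETS matches, and Sdhd has 1 of each. Among members called with the sets joined but not shown, the windows of Cox5b, Ndufb2 and Atp5b have 0 matches of either motif. Ndufs3 has 0 NRF1 and 2 ETS matches, and Ndufb6 has 0 and 1. A link between these letters and the fold changes was not tested. The NRF1 letters can match both strands at the same place, which was counted once, and no NRF1 match overlaps an ETS match in these windows.

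In the new set the members as a family were somewhat higher with Chd8 knockdown, and no single gene passed the test. Of 79 members 72 had a log2 fold change above 0, with a median of 0.22 against 0.02 over all 11291 genes tested. The member median was 0.14 without control replicate 10 and 0.33 without control replicate 11. By limma 0 of the 79 were called at an adjusted p under 0.05, where 8.99% of all genes were called (3.84% higher and 5.15% lower). Unadjusted limma p-values were under 0.05 for 21 of the 79 members and for 3389 of all 11291 genes. The libraries of 18 members did not overlap with knockdown higher, or 22.8% against 18.6% of all genes, and 2 members (Sdhd and Cox6b2) did not overlap with knockdown lower, against 17.1% of all genes. Libraries with the same replicate number deviated weakly together in this set (correlations 0.122, 0.242 and 0.193 over all genes tested). No label states that they are pairs, so a block by replicate number rests on these same data. A fit with this block called 12 members, all higher, where 21.7% of all genes were called (11% higher and 10.7% lower). These are Ndufa1, Ndufa9, Ndufb2, Ndufb8, Ndufs4 and Ndufv1 of complex I, Uqcr11, Uqcrc2 and Uqcrh of complex III, and Atp5c1, Atp5g1 and Atp5o of complex V. Replicates are separate pools of embryos. In such bulk libraries fewer cells of a type cannot be told apart from less RNA per cell.

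**Figure D1:**
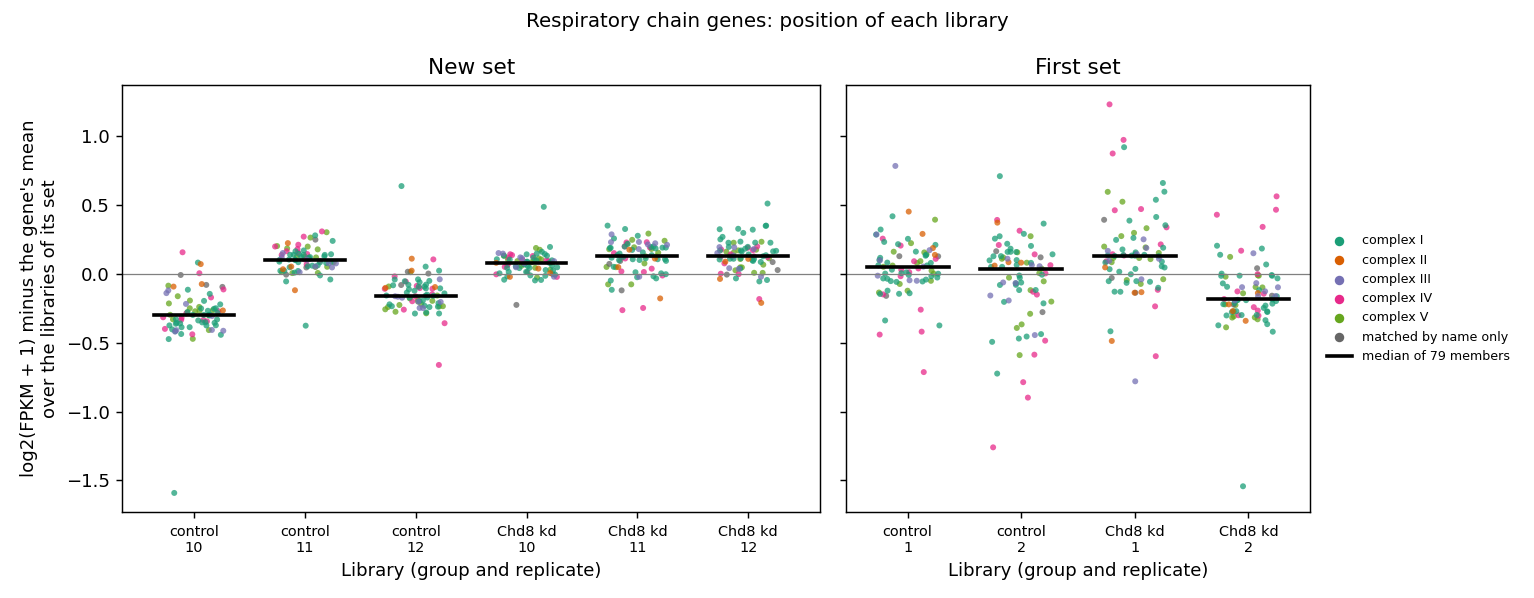
Each point is 1 of 79 genes in 1 library, as log2(FPKM + 1) minus the gene's mean over the libraries of its set, coloured by complex, with the median as a bar. In the new set control replicate 11 (median 0.11) lies with the knockdown libraries (0.08 to 0.13), and control replicates 10 (−0.30) and 12 (−0.16) lie lower. In the first set knockdown replicate 1 (0.13) lies highest and knockdown replicate 2 (−0.18) lowest.

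Control replicate 11 lay with the knockdown libraries, as the plot of library positions shows. It was the highest control for 75 of the 79 members, and control replicate 10 was the lowest of all 6 libraries for 59. Genes of microRNAs and small nucleolar RNAs made up 44.5% of the summed FPKM of control replicate 10. Their share was 6.52% to 16.3% in the other new-set libraries and 46.8% to 68.2% in the first set. The part of this share in the members' levels was not tested. Members summed to 20053, 26719 and 22098 FPKM in control replicates 10, 11 and 12 and to 26002, 26555 and 27085 FPKM in knockdown replicates 10, 11 and 12. The sum of control replicate 11 thus lies within the range of the knockdown libraries. Without control replicate 11, 42 members were called, all higher (20 of complex I, 5 of complex III, 7 of complex IV and 10 of complex V), where 16.7% of all genes were called (9.31% higher and 7.37% lower). The 42 include the 12 called with the replicate block. The libraries of 67 members then did not overlap with knockdown higher, against 29.5% of all genes, and those of 2 with knockdown lower, against 27%. Control replicate 11 was the highest control for most members, so the counts without it follow in part from the members' own values. The shares of all genes are therefore not a like comparison. Leaving out any other new-set library gave 0 calls among members.

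First-set members did not move one way. Of 79 members 31 had a fold change above 0 and 48 below, with a median of −0.08 against −0.146 over all 12461 genes. Limma called 7, where 23.8% of all genes were called (13.2% higher and 10.7% lower). The groups of 14 members did not overlap with knockdown higher, against 27.4% of all genes, and those of 20 with knockdown lower, against 40.4%. Higher were Cox6a1, Cox5b and Cox8a of complex IV and Ndufs3 and Ndufb2 of complex I, and lower were Sdha of complex II and Ndufs1 of complex I. Rescaling each library by the median of ratios moved the median of all genes to 0.089 and that of the members to 0.18, with 61 of 79 above 0. It gave 6 higher calls, the same 5 among them, and ended the calls of Sdha (−0.57, adjusted p = 0.0833) and Ndufs1 (−0.44, adjusted p = 0.165), where 20.1% of all genes were called (16.4% higher and 3.68% lower). Leaving out 1 library, which leaves 2 against 1, left 1 call (Cox6a1) without control replicate 1, 0 without control replicate 2, 1 (Ndufs5, lower) without knockdown replicate 1 and 0 without knockdown replicate 2. The calls over all genes in these fits were 826, 713, 782 and 1247, in place of 2971. Knockdown replicate 1 was above knockdown replicate 2 for 73 of 79 members.

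**Figure D2:**
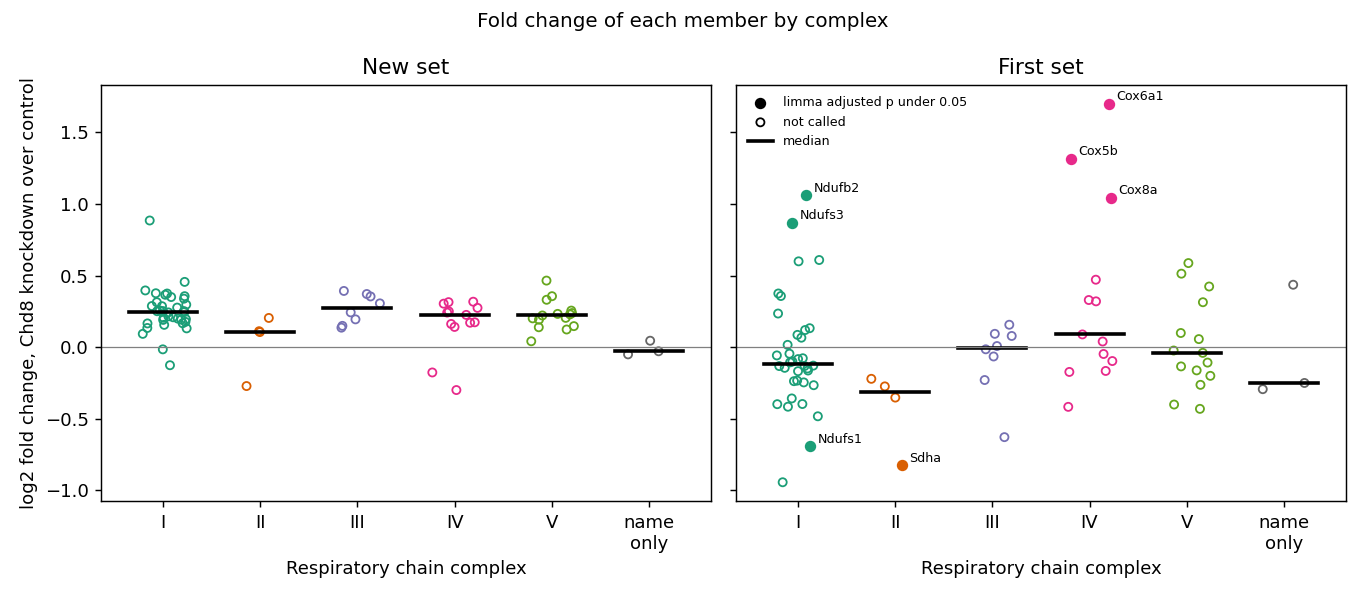
Log2 fold change of knockdown over control for each gene, by complex, with the new set on the left and the first set on the right. Filled points are called by limma and bars are medians. In the new set 0 genes are called and the medians of complexes I to V lie between 0.11 and 0.27. In the first set 7 are called and the medians lie between −0.31 and 0.09.

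Complexes I and IV each had 3 members called in the first set, and those of complex I went in both directions. Its median fold change was 0.25 in the new set (34 of 36 above 0) and −0.12 in the first set (12 of 36 above 0, or 0.14 and 28 of 36 after median-of-ratios rescaling). Ndufs3, a core subunit of the arm that reduces ubiquinone, stood at 95.5 and 87.8 FPKM in the first-set controls and at 197 and 143 FPKM with knockdown. Both knockdown values lay above both controls, and the rise was called (0.87, SE 0.225, limma adjusted p = 0.0328). Ndufs3 of the new set stood at 131, 166 and 145 FPKM in controls and 158, 173 and 167 FPKM with knockdown, where the groups overlapped (0.18, limma adjusted p = 0.279). Ndufb2, an accessory subunit of the membrane arm, went from 97.5 and 74.4 FPKM to 235 and 136 FPKM in the first set (1.06, SE 0.297, limma adjusted p = 0.0413). Its new-set controls were at 167, 210.1 and 172 FPKM and its knockdown libraries at 223, 229 and 227 FPKM. These groups did not overlap either, and the rise there was called with the replicate block (0.31, limma adjusted p = 0.0443, against 0.0913 without it).

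Ndufs1, the core subunit that carries several iron-sulfur clusters of the NADH arm, went the other way in the first set. It stood at 61.9 and 55.9 FPKM in controls and at 34.3 and 37.8 FPKM with knockdown, a fall that was called (−0.69, SE 0.202, limma adjusted p = 0.0462). New-set controls held 62.6, 59.9 and 55.7 FPKM and knockdown libraries 59.7, 59.2 and 57.2 FPKM. All 3 knockdown values there lay within the range of the controls (−0.02, adjusted p = 0.914). Its neighbour in the NADH arm is Ndufv1, which binds NADH and the flavin. It stood at 113, 127 and 108 FPKM in the new-set controls and at 142, 169 and 142 FPKM with knockdown. The groups did not overlap, with a limma adjusted p of 0.0581 and, with the replicate block, of 0.0162 (0.37, SE 0.103). First-set controls held 185 and 165 FPKM of Ndufv1 and knockdown libraries 141 and 110.1 FPKM, so the groups did not overlap in the opposite direction (−0.48, adjusted p = 0.141).

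With the sets joined, complex I had 5 of 36 members called higher and 1 lower, where 29.9% of all genes were called (9.37% higher and 20.5% lower). With the replicate block Ndufb8 (0.37, limma adjusted p = 0.0171) and Ndufa10 (0.22, adjusted p = 0.0445) were called too. Besides Ndufs3, Ndufb2 and, lower, Ndufs1 these include the membrane-arm subunits Ndufb6 (0.41, limma adjusted p = 0.0265) and Ndufb9 (0.35, adjusted p = 0.0479). Ndufs5 had the largest new-set fold change of all members, 0.88, with controls at 8.15, 20.2 and 41.9 FPKM and knockdown libraries at 37.6, 33.6 and 38.3 FPKM. The control values spanned all the knockdown values, and the change was not called (SE 0.459, limma adjusted p = 0.23).

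Complex II, the smallest of the 5 with 4 subunits, had 1 member called in the first set, Sdha. All 4 subunits lay lower in both knockdown libraries than in both controls, where 40.4% of all genes did so. Their median fold change was −0.31, or −0.06 with 1 of 4 above 0 and 0 called after median-of-ratios rescaling. Sdha, the flavoprotein that oxidises succinate, stood at 142 and 134 FPKM in controls and at 73.4 and 81.3 FPKM with knockdown (−0.83, SE 0.193, limma adjusted p = 0.0239). New-set controls held 95.4, 104 and 94.8 FPKM of Sdha and knockdown libraries 108, 110.0 and 99.2 FPKM, and the groups overlapped (0.11, adjusted p = 0.409). Sdhd, a membrane anchor of the complex, was lower in every knockdown library of both sets. Its new-set values were 111, 124 and 114 FPKM in controls and 104, 93.3 and 91.2 FPKM with knockdown. Its first-set values were 148 and 126 FPKM in controls and 109.9 and 103 FPKM with knockdown. Neither set alone called it (−0.27, limma adjusted p = 0.0829, and −0.35, adjusted p = 0.227). The joined fit did (−0.31, SE 0.0865, adjusted p = 0.0202), though not after median-of-ratios rescaling (−0.19, adjusted p = 0.126). It was also not called without first-set control replicate 1 (adjusted p = 0.0578), without new-set knockdown replicate 11 (0.0508) or 12 (0.052), or with libraries weighted by set (0.0525). The iron-sulfur subunit Sdhb (268 ± 29.6 to 308 ± 14.9 FPKM in the new set, SD, n = 3 and 3) and the other anchor, Sdhc (95.5 ± 4.9 to 103 ± 3.74 FPKM), were not called in either set or in the joined fit.

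Complex III had the highest new-set median of the 5 complexes, 0.27, with 8 of 8 members above 0 and 0 called by limma. Of the 8, 4 had an unadjusted limma p under 0.05, against 3389 of all 11291 genes. Uqcrh, the hinge protein that docks cytochrome c1, stood at 268, 378 and 302 FPKM in the new-set controls and at 397, 437 and 398 FPKM with knockdown. Its groups did not overlap (0.39, SE 0.134, limma adjusted p = 0.0986, or 0.0336 with the replicate block). Uqcr10, a small subunit, was placed alike, at 289, 414 and 325 FPKM in controls and 428, 449.9 and 437 FPKM with knockdown (0.37, limma adjusted p = 0.114, or 0.0511 with the block). First-set values of the complex were near 0 (median −0.00384, 4 of 8 above 0), or 0.26 with 7 of 8 above 0 after median-of-ratios rescaling. The Rieske iron-sulfur protein Uqcrfs1 had the smallest p of the complex there, with controls at 94.9 and 48.9 FPKM and knockdown libraries at 31.4 and 60.8 FPKM. These overlapped and were not called (−0.63, SE 0.399, limma adjusted p = 0.275).

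Complex IV held the members with the largest first-set fold changes, Cox6a1 and Cox5b. Cox6a1, the ubiquitous form of subunit VIa, stood at 397 and 225 FPKM in controls and at 1268 and 746 FPKM with knockdown. The lower knockdown library was well above the higher control, and the rise was called (1.70, SE 0.356, limma adjusted p = 0.0166). Cox5b, a subunit on the matrix side, went from 208 and 149 FPKM to 548 and 353 FPKM (1.32, SE 0.283, adjusted p = 0.0179). Cox8a, the smallest subunit of the enzyme in most tissues, went from 228 and 158 FPKM to 501 and 307 FPKM (1.04, SE 0.3, adjusted p = 0.0447). For all 3, knockdown replicate 1 was higher than knockdown replicate 2 and the groups did not overlap.

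The same 3 genes were not called in the new set. Cox6a1 stood at 664, 866 and 773 FPKM in controls and at 716, 598 and 717 FPKM with knockdown, overlapping and on average lower (−0.18, SE 0.138, limma adjusted p = 0.411). Cox5b stood at 259.5, 356 and 289 FPKM in controls and 335, 349 and 364 FPKM with knockdown (0.23, adjusted p = 0.258). Cox8a stood at 355, 491 and 402 FPKM in controls and 470.1, 437 and 456 FPKM with knockdown (0.14, adjusted p = 0.489). Control replicate 11 lay above all knockdown libraries for Cox6a1 and Cox8a and within their range for Cox5b. The median of complex IV was 0.23 (11 of 13 members above 0) among new-set and 0.09 (8 of 13) among first-set fold changes. After median-of-ratios rescaling it was 0.21 and 0.35.

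Several complex IV subunits exist as tissue forms, and cortex cells carried the ubiquitous ones. Cox6a1 was at 768 ± 101 FPKM (SD, n = 3) in new-set controls, and its heart and muscle form Cox6a2 at 0.0227 FPKM. Cox6b1 was at 703 ± 113 FPKM and the testis form Cox6b2 at 3.07 ± 0.459 FPKM. Cox7a2 was at 321 ± 55.9 FPKM and the heart and muscle form Cox7a1 at 2.19 ± 0.914 FPKM, the lowest of the 79 in both tables. Cox7a2l, a related protein that helps to join complexes III and IV, was at 107 ± 20.2 FPKM. Cox4i1 was at 663 ± 115 FPKM and Cox4i2, a form known from lung, at 0.571 FPKM in the new-set controls and 2.76 FPKM in the first-set controls. Cox8a was at 416 ± 69.2 FPKM, and Cox8b and Cox8c were listed at 0 in all 6 new-set libraries.

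Members left out for a control mean under 1 FPKM in a table were therefore Cox4i2, Cox6a2, Cox7b2, Cox8b and Cox8c. Just inside the threshold were Cox7a1 (2.19 FPKM in new-set controls) and Cox6b2 (3.07 FPKM), and just outside it was Cox4i2. Both first-set controls listed Cox7b2 at 0, against 9.95 and 5.97 FPKM with knockdown, and Cox8c at 0, against 3.16 and 1.38 FPKM. Both are known as testis forms, and these are the libraries in which olfactory receptor genes were also listed more often.

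Complex V had 15 of 15 members above 0 in the new set, with a median of 0.22, and 0 called by limma. Of the 15, 3 had an unadjusted limma p under 0.05, against 3389 of all 11291 genes. Atp5b, the catalytic beta subunit and the highest member of the new set, stood at 989, 1117 and 939 FPKM in controls and at 1213, 1308 and 1112 FPKM with knockdown. Control replicate 11 overlapped the knockdown range by a little (0.26, limma adjusted p = 0.222). First-set controls held 311 and 279 FPKM of Atp5b and knockdown libraries 419.7 and 372 FPKM, without overlap (0.42, adjusted p = 0.165). The joined fit called it (0.34, SE 0.102, adjusted p = 0.028), the single call of complex V. With the replicate block Atp5d (0.40, limma adjusted p = 0.0091) and Atp5g3 (0.38, adjusted p = 0.0284) were called too. The first-set median of the complex was −0.04 (6 of 15 above 0), or 0.22 (12 of 15) after median-of-ratios rescaling. Atp5k, the subunit e of the membrane part, was the highest member of the first set, at 1314 and 1426 FPKM in controls and 1144 and 901 FPKM with knockdown (−0.43, limma adjusted p = 0.208).

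Atp5g1, Atp5g2 and Atp5g3 code for the same mature c subunit of the ATP synthase rotor. In the new-set controls Atp5g3 was the highest of them (607 ± 122 FPKM, SD, n = 3), followed by Atp5g2 (363 ± 69.8 FPKM) and Atp5g1 (273 ± 45.3 FPKM). First-set control means had the order Atp5g2 (343 ± 70.1 FPKM, n = 2), Atp5g1 (304 ± 0.33 FPKM) and Atp5g3 (237 ± 31.5 FPKM). The spreads of Atp5g1 and Atp5g2 overlap in both sets. Atp5g1 had the smallest new-set p of all members. It stood at 229, 319.7 and 270.3 FPKM in controls and at 359, 390.0 and 372 FPKM with knockdown, without overlap (0.46, SE 0.127, limma adjusted p = 0.0579, or 0.0229 with the replicate block). Atp5g1 of the first set was at 304 and 304 FPKM in controls and 309.7 and 238 FPKM with knockdown, so that the groups overlapped (−0.16, adjusted p = 0.6).

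The 3 genes that match by name were low and were not called in either set or in the joined fit. Cox4nb, now called Emc8 and part of a membrane protein insertion complex, was at 23.4 ± 0.844 FPKM in new-set controls and 24.2 ± 0.777 FPKM with knockdown (SD, n = 3 and 3). Atp5s, a factor linked to ATP synthase coupling, was at 5.69 ± 0.933 and 5.42 ± 0.356 FPKM, and Atp5sl at 9.03 ± 0.202 and 8.88 ± 1.2 FPKM.

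**Figure D3:**
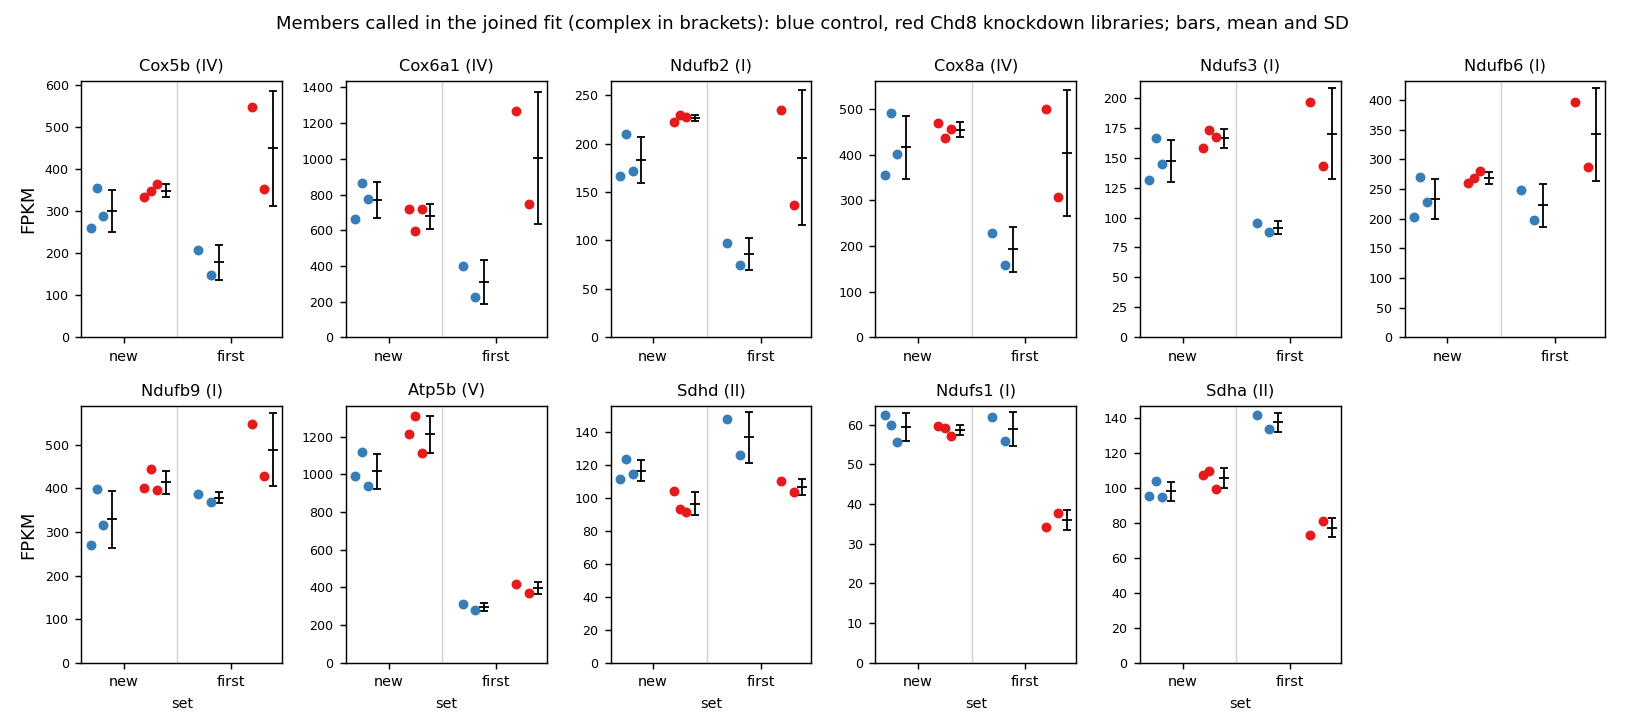
FPKM of 11 genes called in the joined fit, 1 panel per gene, with control libraries in blue, knockdown libraries in red and the mean with its SD in black. Cox5b, Cox6a1, Cox8a, Ndufb2 and Ndufs3 show wide knockdown spreads in the first set, Sdhd is lower with knockdown in both sets, and Sdha and Ndufs1 are lower without overlap in the first set.

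The joined fit averaged the fold changes of both sets and called 12 of 79 members, 9 higher and 3 lower, where 29.9% of all 10827 genes were called, 9.37% higher and 20.5% lower. The 7 first-set calls are among the 12. With the replicate block 17 were called, 14 higher and 3 lower, where 34.1% of all genes were called (10.9% higher and 23.2% lower). They are the 12 and Cox4i1 (adjusted p = 0.0586 without and 0.0147 with the block), Atp5d, Atp5g3, Ndufb8 and Ndufa10. The others include Ndufb6, Ndufb9, Atp5b and Sdhd. When the libraries were weighted by the spread of their set, an alternative chosen after seeing the data, the 12 calls became 7, the same 7 as in the first set, where 19.8% of all genes were called. After median-of-ratios rescaling 17 members were called higher and 2 lower, where 24.7% of all genes were called (13.5% higher and 11.2% lower). Without control replicate 11 of the new set the joined fit called 20 members, without knockdown replicate 2 of the first set 19, and without control replicate 2 of the first set 7. Over all genes these fits called 3250, 4153 and 2898, in place of 3238. Cox5b, Cox6a1, Ndufb2, Ndufs3, Ndufs1 and Sdha kept their joined call whichever 1 library was left out. A joined call need not mean a change in both sets. Without the block none of these was called in the new set, where their fold changes were 0.23, −0.18, 0.31, 0.18, −0.02 and 0.11. The joined values of Cox6a1 and Sdha average opposite signs. Apart from Ndufb2, the difference between sets was itself called for each of these genes. Cox8a lost its joined call without first-set control replicate 2 (limma adjusted p = 0.0662) or knockdown replicate 1 (0.063). Ndufb6, Atp5b and Ndufb9 lost it without either of these libraries and without new-set control replicate 10 or 12 or knockdown replicate 11, with limma adjusted p-values up to 0.101, 0.0892 and 0.163. New-set knockdown replicate 10 also ended the calls of Atp5b and Ndufb9 when left out, knockdown replicate 12 those of Ndufb6 and Ndufb9, and first-set control replicate 1 that of Ndufb9.

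Fold changes of single members bore little relation between the sets. Of 79 members 30 were higher in both sets, 42 higher in the new and lower in the first set, 6 lower in both (Atp5s, Atp5sl, Cox6b2, Ndufs1, Ndufs7 and Sdhd) and 1, Cox6a1, lower in the new and higher in the first set. Across the 79 genes, which share libraries and are not independent, Pearson's r was −0.089 and Spearman's rho 0.13. The members' fold changes had an SD of 0.16 (new set) and 0.44 (first set).

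**Figure D4:**
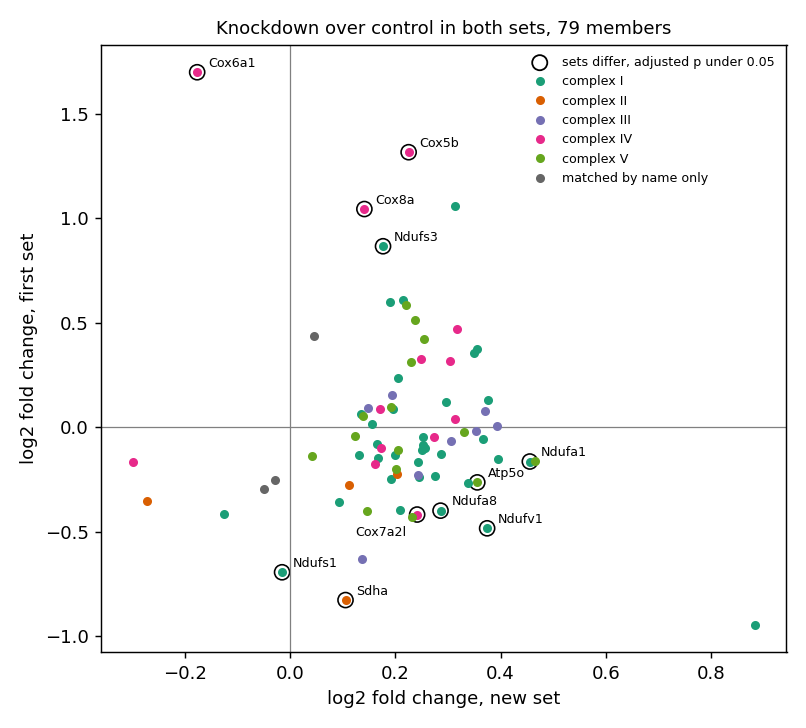
Log2 fold change in the new set (horizontal axis) against the first set (vertical axis) for 79 genes, coloured by complex, with circles where the sets differ by the joined limma fit. Cox6a1, Cox5b, Cox8a and Ndufs3 lie highest among the circled genes and Sdha and Ndufs1 lowest, while the quartiles of the members lie at 0.15 and 0.30 in the new set.

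The test of the difference itself called 11 of 79 members, where 32.5% of all genes were called (22.5% higher and 9.98% lower in the new set). Fold changes were higher in the new set for Sdha (difference 0.93, SE 0.162, limma adjusted p = 0.00235), Ndufv1 (0.86), Ndufa8 (0.68), Ndufs1 (0.68), Cox7a2l (0.66), Ndufa1 (0.62) and Atp5o (0.62). They were lower for Cox6a1 (−1.88, SE 0.371, adjusted p = 0.0041), Cox5b (−1.09), Cox8a (−0.90) and Ndufs3 (−0.69). The other 9 had limma adjusted p-values from 0.00952 (Ndufs1) to 0.0476 (Ndufa1 and Atp5o), and that of Ndufa1 was 0.0522 with the replicate block. The block called 15 differences, 9 higher and 6 lower in the new set, where 36.1% of all genes were called (24.8% higher and 11.3% lower). Those gained include Ndufb2 (limma adjusted p = 0.0187), Atp5a1 (0.0243), Uqcrc2 (0.0338) and Atp5g1 (0.0362). After median-of-ratios rescaling 1 member (Sdha) was called higher and 7 were called lower in the new set, where 25.3% of all genes were called (10.7% higher and 14.5% lower). Weighted by set, 5 differences were called, where 21.3% of all genes were: Sdha, Cox6a1, Ndufs1, Ndufv1 and Cox5b. The calls of Sdha, Cox6a1, Ndufs1 and Ndufv1 held whichever 1 library was left out. That of Cox5b was lost without first-set control replicate 2 (limma adjusted p = 0.0674) or knockdown replicate 1 (0.0595), and that of Ndufa8 without first-set control replicate 1 (0.0589) or new-set knockdown replicate 11 (0.0534). Those of Ndufs3, Cox8a, Cox7a2l, Ndufa1 and Atp5o were each lost without any of 7 or more of the 10 libraries, with limma adjusted p-values up to 0.107, 0.175, 0.0938, 0.143 and 0.112.

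Other gene groups moved with the members from library to library. The median deviation of members in new-set control replicates 10, 11 and 12 was −0.30, 0.11 and −0.16 on the log2 scale. For 78 genes of cytosolic ribosomal proteins it was −0.29, 0.21 and −0.28, and for 76 genes of mitochondrial ribosomal proteins −0.19, 0.12 and −0.08. Knockdown libraries lay at 0.08 to 0.13 for members and at 0.11 to 0.14 for cytosolic ribosomal proteins. Members are short and abundant: their transcripts had a median length of 651 bases, against 2174 over the genes tested. The length of a gene is here the median over all its annotated protein-coding transcript models. It need not be that of the main transcript. The 409 other genes with transcripts of up to 1000 bases and at least 100 FPKM had a median new-set fold change of 0.20, with 82.6% above 0, against 0.22 and 91.1% for members. A correction of each library for transcript length left the member median at 0.16 and called 6 higher and 1 (Sdhd) lower, where 15.9% of all genes were called (7.45% higher and 8.45% lower). Across the 79 members the new-set fold change showed little relation to length so measured or to GC content (Spearman's rho −0.03 for both). First-set rho was −0.21 for length and 0.08 for GC content. The part of transcript length and abundance in the new-set pattern was not otherwise tested.

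**Figure D5:**
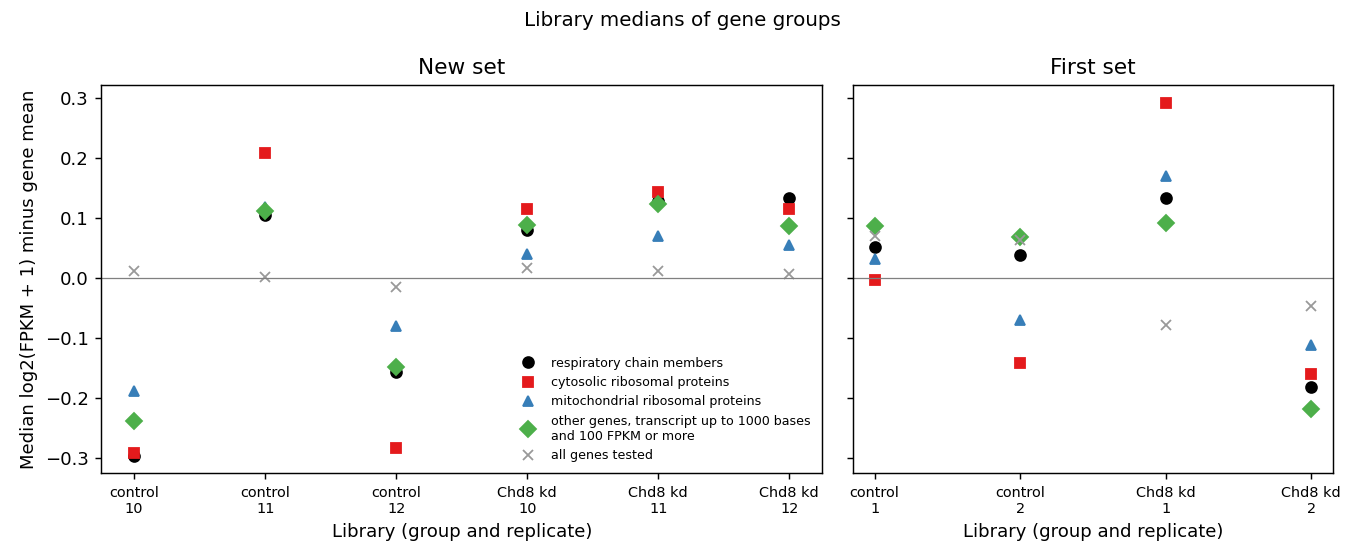
Median log2(FPKM + 1) minus the gene mean in each library for 5 groups of genes, with the new set on the left and the first set on the right. In the new set members, ribosomal protein genes and other short abundant genes are low in control replicates 10 and 12 and high in control replicate 11, while the median of all genes stays within 0.02 of 0.

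Cell type markers differed between groups as well. By limma 8 of 12 radial glia markers fell and 0 rose in the new set (median −0.70), among them Sox9 (−0.91, adjusted p = 0.00677) and Hes5 (−0.81, adjusted p = 0.0105), as did 4 of 7 intermediate progenitor markers, and 6 of 11 postmitotic neuron markers rose and 0 fell (9 with the replicate block), where 3.84% of all genes were called higher and 5.15% lower. Of the same 3 lists 2, 3 and 4 fell and 0, 2 and 0 rose in the first set. There 13.2% of all genes were called higher and 10.7% lower. Postmitotic neuron markers (11 genes) summed to between 2401 and 2858 FPKM in new-set controls and between 3420.4 and 4251 FPKM with knockdown. Their first-set sums lay the other way, between 4713 and 5169 FPKM in controls and between 3242 and 3538 FPKM with knockdown. Radial glia markers (12 genes) summed to 1370.3 to 1791 FPKM in new-set controls and 1112 to 1682 FPKM with knockdown, and to 1828 to 1869 FPKM against 1059 to 2212 FPKM in the first set. Intermediate progenitor markers (7 genes) summed to 885 to 984 FPKM in new-set controls and 605 to 667 FPKM with knockdown, and to 585 to 592 FPKM against 559 to 989 FPKM in the first set. Erythroid genes (9 genes) summed to 225 to 427 FPKM in new-set controls and 38.9 to 175 FPKM with knockdown, and to 29.8 to 36.1 FPKM against 2.28 to 79.2 FPKM in the first set, where 1 of the 9 was at 0 in all libraries. Interneuron markers (8 genes) summed to 18.6 to 27.6 FPKM in new-set controls and 9.18 to 9.29 FPKM with knockdown. Microglia markers (8 genes) summed to 2.2 to 11.5 FPKM in the new-set libraries, to 2 to 6.62 FPKM in first-set controls and to 16.2 to 30.9 FPKM with first-set knockdown. Endothelial genes (8 genes) summed to at most 2.91 FPKM in the new set, with Cdh5, Flt1 and Tek under 0.1 FPKM, and to 16.5 FPKM in the first set. Meningeal genes (6 genes) summed to at most 2.33 FPKM in any library. Their first-set sums were 0.371 to 0.64 FPKM in controls and 1.62 to 1.93 FPKM with knockdown. Choroid plexus genes (5 genes) summed to 0.33 to 0.508 FPKM in new-set controls and 0.133 to 44.5 FPKM with knockdown, and to 0.779 to 1.62 FPKM against 5.76 to 9.6 FPKM in the first set. Microglial, meningeal and choroid plexus sums were thus higher in both first-set knockdown libraries than in both controls. Olfactory receptor genes were higher there too, with a mean per gene of 1.39 and 0.993 FPKM against 0.0181 and 0.0217 FPKM in the controls. Whether these low sums come from such cells was not tested. The part of these cell types in the members' levels was not tested.

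Other genes of the same pathway were read from lists. Of 6 tested further subunits and carriers 1, the acyl carrier Ndufab1, rose in the joined fit (0.41, limma adjusted p = 0.0459). That fit called 9.37% of all genes higher. All 6 were above 0 in the new set. Of 37 assembly factors, which build the complexes, 5 rose and 1 fell in the new set, where 8.99% of all genes were called. With the replicate block 8 rose and 1 fell, a share near the 21.7% of all genes called in that fit. Bcs1l, which inserts the Rieske protein into complex III, stood at 11.1, 13.6 and 11.4 FPKM in controls and 17.9, 21.7 and 17 FPKM with knockdown (0.61, limma adjusted p = 0.0281). Chchd8, a complex IV factor, stood at 13.5, 17 and 13.8 FPKM and 22.1, 25.8 and 20.9 FPKM (0.61, adjusted p = 0.0268). The complex I factors Ndufaf2 and Ndufaf3 and the complex III factor Lyrm7 also rose (0.60, 0.46 and 0.54). The complex II factor Sdhaf1 fell from 43.4, 58.2 and 49 FPKM to 36.6, 34.8 and 36.8 FPKM (−0.46, limma adjusted p = 0.0431). In the first set, where 23.8% of all genes were called, 1 of the 37 rose, the complex I factor Acad9 (8.01 and 7.23 to 36.2 and 25.7 FPKM, 1.87, limma adjusted p = 0.00299), and 2 fell, Tmem126b (−0.81) and Cox15, an enzyme of heme A synthesis (−1.28).

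Regulators of mitochondrial biogenesis showed 0 rises and 4 falls among 16 tested in the joined fit, where 20.5% of all genes were called lower. These were the transcription factors Nrf1 (−0.42, limma adjusted p = 0.0113) and Yy1 (−0.42, adjusted p = 0.0264), the coactivator Pprc1 (−0.44, adjusted p = 0.0184) and Tfb1m (−0.35, adjusted p = 0.0249). Nrf1 stood at 31.5, 30.3 and 31.3 FPKM in the new-set controls and 32.5, 30.3 and 29.1 FPKM with knockdown. First-set Nrf1 stood at 41 and 29.7 FPKM in controls and 18.3 and 20.5 FPKM with knockdown (−0.82, limma adjusted p = 0.0475). The Nrf1 groups overlapped in the new set and did not in the first set. Yy1, Pprc1 and Tfb1m had fold changes of −0.07, −0.10 and −0.19 in the new set. Their first-set values were −0.76, −0.78 and −0.51, and neither set alone called any of them. The difference between sets was called for Nrf1 and Pprc1, and not for Yy1 or Tfb1m.

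Pathways that feed the chain were counted too. Of all genes, 13.2% were called higher and 10.7% lower in the first set, and 3.84% and 5.15% in the new set (11% and 10.7% with the replicate block). Of 18 genes of pyruvate dehydrogenase and the citric acid cycle 6 fell in the first set, with a median of −0.45, and in the new set 1 rose and 1 fell (3 and 2 with the replicate block), with a median of 0.10. The difference between sets was called for 10 of the 18, all higher in the new set, where 22.5% of all genes were called in that direction. Suclg2, a subunit of succinyl-CoA synthetase, fell in the joined fit (−1.07, limma adjusted p = 0.000844), as did Pdhx of pyruvate dehydrogenase (−0.42) and Idh3b of isocitrate dehydrogenase (−0.39). Pdha1, also of pyruvate dehydrogenase, fell in the first set (−0.91, limma adjusted p = 0.0296) and had a fold change of 0.21 in the new set (adjusted p = 0.149), where all knockdown libraries lay above all controls, so that its joined value of −0.35 averages opposite signs. Of 17 glycolysis genes 5 fell in the first set (median −0.54) and 0 were called in the new set (median 0.02, and 2 fell with the replicate block), and the difference was called for 7, all higher in the new set, against 22.5% of all genes. Pkm2, pyruvate kinase, went from 1109.9 and 1059.8 FPKM to 574 and 537 FPKM in the first set (−0.96, limma adjusted p = 0.0176).

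Ribosomal protein genes were counted in the same way, against the same shares of all genes and, in the joined fit, 9.37% called higher and 20.5% lower (10.9% and 23.2% with the block). Of 76 mitochondrial ones 1 rose in the new set (8 with the replicate block), 5 rose and 2 fell in the first set, and 16 rose and 5 fell in the joined fit. Of 78 cytosolic ones 0 were called in the new set, 2 rose in the first set, Rps2 and Rps10, and 7 rose in the joined fit (14 with the replicate block). Rps2 went from 341 and 249 FPKM to 876 and 582 FPKM in the first set (1.29, limma adjusted p = 0.0178), with knockdown replicate 1 highest, as for Cox6a1, Cox5b and Cox8a. Genes of these families have processed pseudogene copies, and reads shared with such copies cannot be told apart in these values.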

How the data were processed

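FPKM values of 10 libraries, in 1 table for each set, were used as deposited. The authors made the FPKM with TopHat2, Bowtie, Cufflinks 2.0.0 and Cuffdiff on mouse build mm9, per the submitters' processing notes. The sources used here give neither annotation nor strand setting, so reads shared with pseudogenes or overlapping genes cannot be told apart and such genes are uncertain. Results for a few genes are not reported here. FPKM hold no counts, so no count test was run.

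Values were analysed as log2(FPKM + 1), computed here from the deposited FPKM, so that fold changes of low genes are understated. Genes whose mean in a table reached 1 FPKM were tested with limma 3.58.1 in R 4.3.3 (moderated with an intensity trend, Benjamini-Hochberg adjustment over all genes tested, threshold 0.05), within each set (4 and 2 residual degrees of freedom) and in a joined fit of 10 libraries (6), which gave the mean of both sets' fold changes and their difference. The script was tested on simulated data. New-set libraries with the same number in both groups deviated weakly together over 11291 genes (correlations 0.122, 0.242 and 0.193), though no label states a pairing. Blocked values or counts are therefore given where the block changes calls among members, and for some of the other lists. First-set libraries share only a number.

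Members and lists were chosen with earlier results of these data known. Named were members called in either set or jointly, the smallest p of each complex, the largest differences between sets, the highest and lowest control levels, isoform families, members matching by name only or under 1 FPKM, and up to 4 called genes of each other list. Transcript lengths came from GENCODE M21, as the median over all protein-coding transcript models of a gene. For single genes they are rough (651 bases for Ndufs1 and 2675.5 for Atp5g1), and so are the length classes and the length correction. The alternatives were a pseudocount of 0.1, no filter, a minimum of 5 FPKM, median-of-ratios rescaling, no trend, a replicate block, a length correction and leaving out each library. Weighting by set and subtracting the olfactory receptor mean were added after seeing the data. With 3 against 3 libraries an exact two-sided permutation test cannot go below p = 0.1.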

Additional observations from a re-analysis of the deposited data

Results flagged for a closer look

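For 11 members the knockdown fold change differed between the sets by the joined limma test of the difference itself. The difference, new set minus first set on the log2 scale, was 0.93 for Sdha, 0.86 for Ndufv1, 0.68 for Ndufa8, 0.68 for Ndufs1, 0.66 for Cox7a2l, 0.62 for Ndufa1 and 0.62 for Atp5o. It was −1.88 for Cox6a1, −1.09 for Cox5b, −0.90 for Cox8a and −0.69 for Ndufs3. The sets also differ in shRNA, batch and table, whose parts cannot be told apart.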

How the results depend on the processing

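With the replicate number as a block, 12 members were called in the new set in place of 0, and 2452 in place of 1015 of all genes. The pairing rests on the correlation check, and in the first set, where the libraries share only a number, the block gave 6 calls among members in place of 7. The length correction gave 7 members and 1718 genes in the new set. Without the filter on low values 1 member was called in the first set, with 470 genes called in the new set and 5917 jointly. Without an intensity trend 4 members were called in the first set, and a minimum of 5 FPKM left 1602 of its 2971 genes. Median-of-ratios rescaling gave 19 members jointly in place of 12 and moved the first-set member median from −0.08 to 0.18. Weighting by set gave 7 members and 2139 genes jointly and 5 members differing between sets in place of 11. Leaving out 1 library at a time, in which a lone sample is assumed to vary like the others, members called ranged from 0 to 42 in the new set (42 without control replicate 11), from 0 to 1 in the first set and from 7 to 20 jointly. Members differing between sets ranged from 5 (without knockdown replicate 11 of the new set) to 17 (without control replicate 11 of the new set). All genes called ranged from 88 to 1883 in the new set and from 713 to 1247 in the first set. The new-set member median ranged from 0.14 (without control replicate 10) to 0.33 (without control replicate 11). The first-set member median ranged from −0.24 (without knockdown replicate 1) to 0.10 (without knockdown replicate 2). The new-set Chd8 fold change ranged from −0.70 to −0.59, with limma adjusted p from 0.0218 to 0.0829, and stayed under 0.05 only without control replicate 11. The causes of these moves were not tested. Over the named members and these alternatives 487 values kept their direction and side of the threshold, 135 lost the call, 12 gained it and 0 reversed. FPKM do not give the depth, so precision rests on 2 or 3 libraries a group.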
